A study of Arabidopsis thaliana with 6 samples.

Results

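In Arabidopsis thaliana, 92 transcripts stood well above background on each of the 3 arrays of *pgp1-2* seedlings but on none of the 3 arrays of wild-type (WT) seedlings, out of 34105 genes with a measured probe (0.27%). *PGP1* encodes phosphatidylglycerophosphate synthase, and *pgp1-2* is a mutant allele of it. Whole seedlings of ecotype Columbia-0 were grown in continuous light on agar with 3% sucrose. The light was first 30 and then 15 µmol photons m-2 s-1: the first step lasted 14 d for *pgp1-2* and 7 d for WT, the second 7 d for each. They were therefore 21 d old (*pgp1-2*) and 14 d old (WT), and genotype and age cannot be told apart in any difference below. The labels do not say whether replicates came from separate cultures, so their spread may be technical.

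Members were chosen by their signals and detection flags. A probe had to be flagged well above background, a call of the scanner software that a spot exceeds its background by a margin, on every *pgp1-2* array and no WT array. Its mean log2 signal in *pgp1-2* had to exceed the WT mean by at least 1.5, and the brightest such probe stood for its gene. Signals are log2 values relative to the 75th percentile of their array. Since these same values chose the members, the members' levels and differences are descriptions and carry no test.

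Phosphatidylglycerol is the only major phospholipid of the thylakoid membrane, where it takes part in the assembly and function of both photosystems. Plants that make too little of it are pale and depend on supplied sugar. A detection flag marks whether hybridisation to a probe exceeds the glass and stray signal around it, so a transcript that passes it in only one set of plants may be absent, rare, or limited to few cells in the other. In whole seedlings, fewer cells of a type and less RNA per cell cannot be told apart.

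The probe for *PGP1* itself gave -8.81, -7.43 and -8.72 in *pgp1-2*, not well above background on any array, and 0.78, 0.93 and 0.73 in WT, where it was detected on all 3. Detection differed by slide: 79.3% of probes passed the flag on *pgp1-2* replicate 1 and 78.7% on WT replicate 1, which shared slide 1, whereas 68.6% to 70.6% passed on the other 4 arrays, all on slide 2. The lowest signal that still counted as well above background was accordingly lower on slide 1, at -8.36 for *pgp1-2* and -8.13 for WT, than on slide 2, where it was -6.19 and -6.46 for *pgp1-2* and -5.94 and -6.06 for WT. A WT value of a member is thus only a bound. Each member is described by an at-least fold: the mean *pgp1-2* signal over the WT mean of, per array, the member's own signal or that lowest detected signal, whichever was higher.

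The *pgp1-2* signals of the 92 members exceeded this bound by a median of 3.88-fold. The highest at-least fold was 66.8. It was 10 or more for 17 members, 4 or more for 45, and under 2 for 13. Without WT replicate 1 the highest was 40.8, 9 reached 10, 28 reached 4, 38 were under 2 and 6 of those under 1. Without WT replicate 2 or WT replicate 3, 2 and 5 members were under 2. On slide 1 alone the median was 12.1, and on slide 2 alone it was 2.18; the detection limit of slide 1 was the lower one. With normexp background correction in place of the software's own, the median fell to 1.08 and the highest value was 14.0. Then 7 members reached 4, 72 were under 2 and 40 of those under 1, and 14 genes met the rule. That correction also added an offset of 50 to every signal, which by itself lowers the folds of dim probes. How much of the drop came from the offset was not tested. Every *pgp1-2* array lay above every WT array for 87 members; over all 22682 genes kept for testing, 34.6% showed that order. The limma fit across all genes called 88 members higher, where the background share of higher calls was 27.9% (7.01% with a difference of at least 1 on the log2 scale); both counts follow from how the members were chosen.

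**Figure D1:**
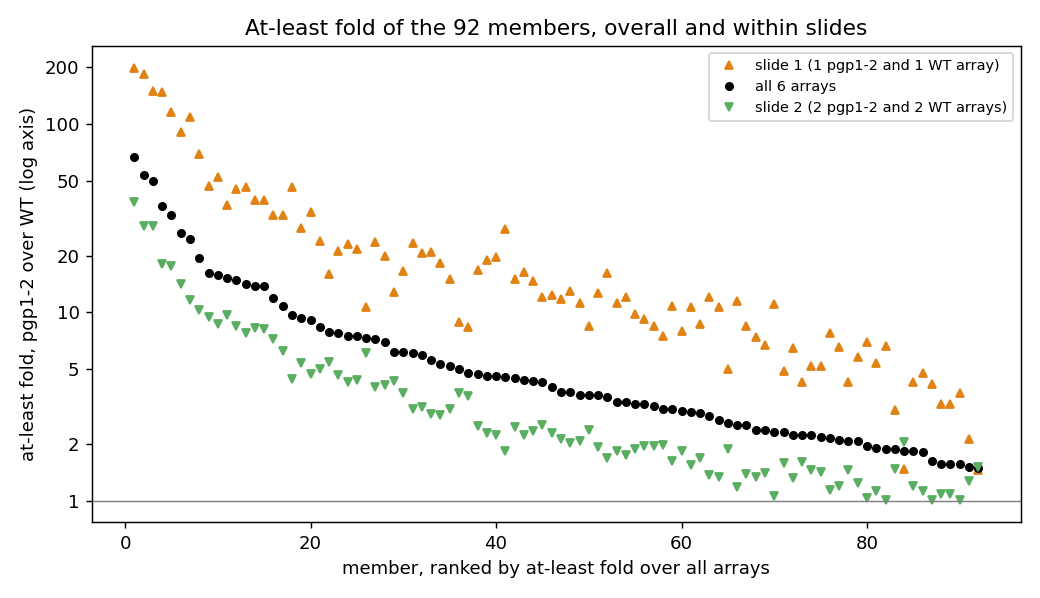
The vertical log axis gives the at-least fold of *pgp1-2* over WT, and the horizontal axis ranks the 92 members by it. Black points use all 6 arrays, upward triangles slide 1 (1 array of each group) and downward triangles slide 2 (2 of each); the slide 1 values have a median of 12.1 and the slide 2 values one of 2.18.

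The name "detected only in the mutant" depended on the flag. Under a more lenient flag in the same files, for a signal that is positive and significant against background, all 92 members passed on all 3 *pgp1-2* arrays. On at least 1 WT array 78 of the 92 passed as well. They were 69 on WT replicate 1, 29 on replicate 2 and 25 on replicate 3. On no WT array did the other 14 pass. Applied to all probes, the rule with this flag was met by 15 of the 92 genes: those 14, and AT3G28560 through another probe. On the linear scale the median member gave 151, 144 and 102 units on the *pgp1-2* arrays and 4.75, 12.7 and 10.8 units on the WT arrays.

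Just outside the size limit lay AT5G41390, with a difference in means of 1.37. Just inside it were AT2G26450 with 1.51, AT5G27020 with 1.65, NP235465 with 1.70 and *ABCF2* with 1.74. A further gene, *ARI3*, met the flags with 2.17, but a spot of it was flagged as an outlier and it was left out. With the groups exchanged, the same rule found 47 genes well above background only in WT.

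Of the 92 members, 31 have a symbol or name in the gene table, 47 have a locus identifier only, and 14 are known only by the name in the array files. A symbol was listed for 38.5% of the 78 members with a locus, 39.7% of all loci with a probe and 44.7% of the kept loci. Among the 12 highest there was 1 named gene, *CYP96A11*. The median at-least fold was 3.56 for the 31 with a name, up to 16.1, and 13 of them reached 4. It was 4.54 for the 47 loci without one, up to 53.5, with 26 at 4 or more, and 3.48 for the 14 file names, with 6 at 4 or more. The chromosomes held 16, 12, 16, 12 and 22 members in order from 1 to 5, which is 20.5%, 15.4%, 20.5%, 15.4% and 28.2% of the 78 with a locus, beside 26.4%, 15.4%, 19.8%, 15.1% and 23.4% of all kept loci.

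**Figure D2:**
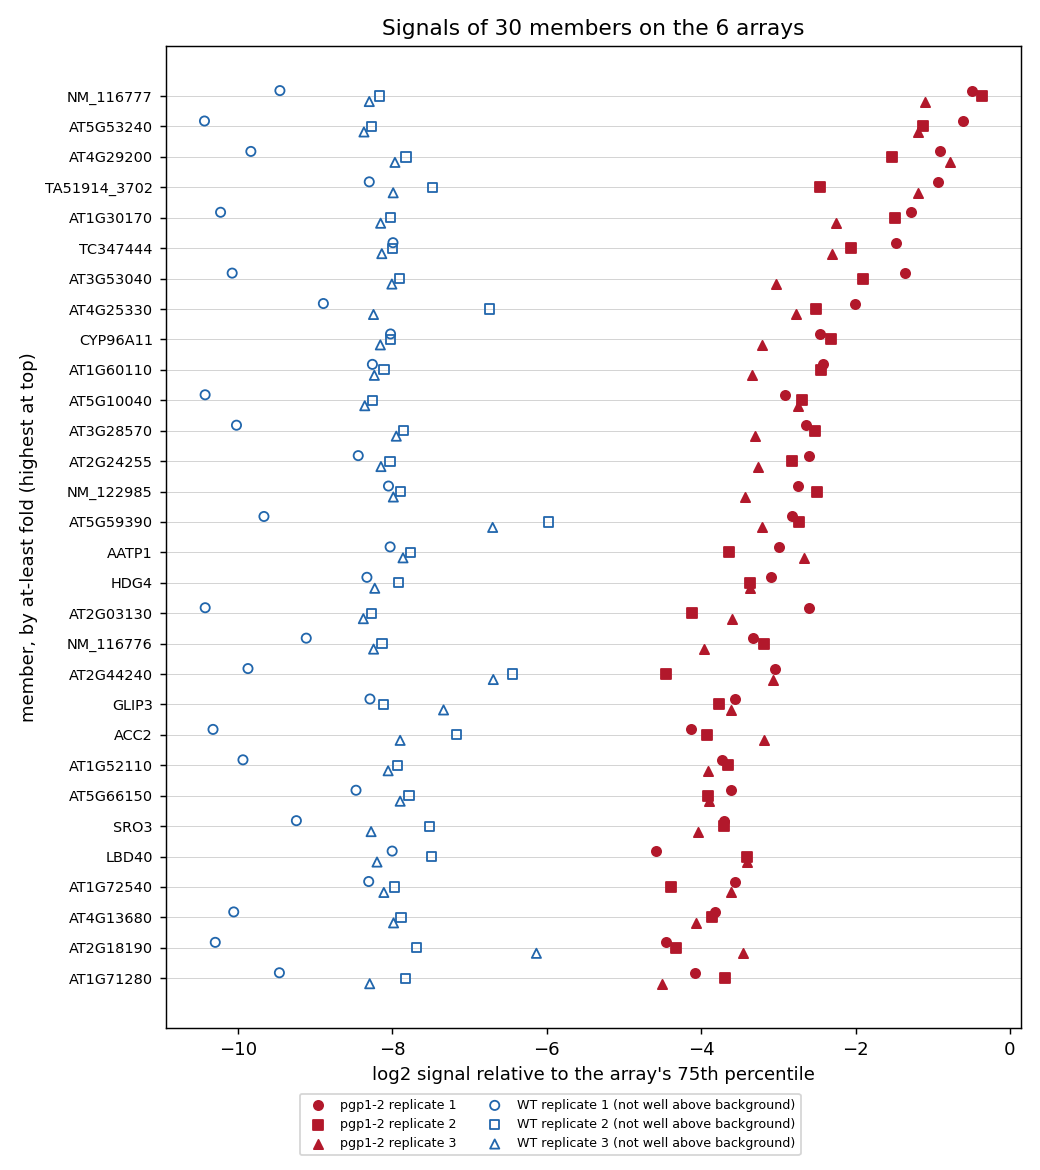
Each row is 1 of the 30 members with the highest at-least fold, and the horizontal axis is the log2 signal relative to the 75th percentile of the array. Filled symbols are the 3 *pgp1-2* arrays and open symbols the 3 WT arrays, none of them well above background; in each of the 30 rows all filled symbols lie to the right of all open ones, by at least 1.68. Signals are compared within a row only, since probes differ in brightness.

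NM_116777, a transcript known by that file name, headed the members. Its log2 signal was -0.49, -0.37 and -1.10 on the *pgp1-2* arrays and -9.46, -8.16 and -8.30 on the WT arrays, at least 66.8-fold higher in *pgp1-2*. AT5G53240 gave -0.60, -1.12 and -1.19 in *pgp1-2* and -10.43, -8.27 and -8.37 in WT, at least 53.5-fold higher. In both, the 3 mutant arrays lay within 1 log2 unit of each other and far above every WT array.

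AT4G29200 had signals of -0.90, -1.53 and -0.78 in *pgp1-2* and -9.83, -7.82 and -7.97 in WT, at least 49.9-fold higher in *pgp1-2*. A second probe for it followed the same pattern, with a mean of -5.20 in *pgp1-2* and -8.14 in WT. TA51914_3702, a file name for an assembled transcript, was less even, with -0.93, -2.46 and -1.19 in *pgp1-2* and -8.30, -7.48 and -7.99 in WT. Its replicate 2 value was the low one in *pgp1-2*, and its at-least fold was 36.5.

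AT1G30170 gave -1.28, -1.49 and -2.25 in *pgp1-2* and -10.22, -8.02 and -8.15 in WT, at least 32.9-fold higher. TC347444 gave -1.48, -2.06 and -2.31 in *pgp1-2* and -7.99, -8.00 and -8.14 in WT, at least 26.3-fold higher. AT3G53040 gave -1.36, -1.90 and -3.03 in *pgp1-2* and -10.07, -7.91 and -8.01 in WT, at least 24.5-fold higher. Replicate 3 was the lowest *pgp1-2* array for these 3, as it was for 52 of the 92 members.

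AT4G25330 had signals of -2.01, -2.51 and -2.77 in *pgp1-2* and -8.89, -6.74 and -8.24 in WT, and was at least 19.4-fold higher. *CYP96A11*, a cytochrome P450 of the subfamily that includes a midchain alkane hydroxylase of wax synthesis, gave -2.46, -2.32 and -3.21 in *pgp1-2* and -8.02, -8.02 and -8.15 in WT. Its at-least fold was 16.1. AT1G60110 gave -2.42, -2.45 and -3.34 in *pgp1-2* and -8.26, -8.11 and -8.23 in WT, at least 15.7-fold higher.

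AT5G10040 was the most even of the 12 highest, at -2.91, -2.69 and -2.75 in *pgp1-2* (mean -2.78 ± 0.11, SD, n = 3) and -10.42, -8.26 and -8.36 in WT. It was at least 15.2-fold higher, and a second probe for it, with a mean of -3.47 in *pgp1-2* and -8.72 in WT, showed the same pattern. AT3G28570 gave -2.64, -2.53 and -3.30 in *pgp1-2* and -10.02, -7.85 and -7.95 in WT, at least 14.8-fold higher. Across these 12 transcripts the lowest mutant array exceeded the highest WT array by 3.97 or more.

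The next 18 comprised 6 named genes, 10 loci without a name and 2 file names. Among the loci without a name, AT2G24255 and AT5G59390 were at least 14.1-fold and 13.8-fold higher in *pgp1-2*, AT2G03130 and AT2G44240 at least 9.65-fold and 9.13-fold, and AT1G52110 and AT5G66150 at least 7.72-fold and 7.50-fold. AT1G72540, AT4G13680, AT2G18190 and AT1G71280 closed the group at 7.25-fold, 6.94-fold, 6.19-fold and 6.14-fold or more. The file names NM_122985 and NM_116776 stood at 13.8-fold and 9.34-fold or more. AT2G44240 was uneven, with signals of -3.04, -4.46 and -3.07 in *pgp1-2* and -9.87, -6.44 and -6.69 in WT.

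Transcription factors made up 6 of the named members. The factor with the highest at-least fold was *HDG4*, of the HD-ZIP class IV group that acts in the epidermis, at -3.09, -3.36 and -3.37 in *pgp1-2* and -8.33, -7.92 and -8.23 in WT, at least 10.8-fold higher. A second gene of that group, *HDG7*, gave -4.22, -3.91 and -4.86 in *pgp1-2* and -10.40, -8.25 and -8.36 in WT, at least 5.20-fold higher. *LBD40*, a LOB-domain factor, gave -4.58, -3.40 and -3.41 in *pgp1-2* and -8.00, -7.50 and -8.20 in WT. It was at least 7.32-fold higher, and its low array in *pgp1-2* was replicate 1.

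*NAC085*, a factor of the NAC family, gave -4.26, -4.65 and -4.90 in *pgp1-2* and -9.99, -7.72 and -7.88 in WT, at least 4.31-fold higher. *ZFP10*, a C2H2 zinc-finger protein, was variable at -3.83, -3.88 and -5.81 in *pgp1-2* and -9.49, -8.22 and -6.66 in WT, at least 4.61-fold higher. *MYB27*, a MYB factor, gave -5.70, -5.89 and -5.78 in *pgp1-2* and -10.38, -8.17 and -7.13 in WT, at least 1.90-fold higher. Of these 6, only *MYB27* had an at-least fold under 4.

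Members with a role in chromatin had low at-least folds. *DRM1* encodes a homologue of the de novo DNA methyltransferase DRM2 and gave -5.42, -5.34 and -6.16 in *pgp1-2*, against -10.33, -8.15 and -8.27 in WT. It was at least 2.11-fold higher. *CHR34*, an SNF2-type chromatin remodelling protein, was at least 2.52-fold higher, with -5.06, -5.56 and -5.52 in *pgp1-2* and -10.40, -7.01 and -7.12 in WT.

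A further 3 members are known from reproductive tissue. *GEX1*, a nuclear envelope protein of gametes, gave -3.77, -4.16 and -4.53 in *pgp1-2* and -8.99, -8.02 and -8.15 in WT, at least 5.90-fold higher. *LRE* (LORELEI), which acts in the ovule in pollen tube reception, gave -4.85, -4.93 and -5.25 in *pgp1-2* and -10.33, -6.87 and -6.33 in WT, at least 3.26-fold higher. *GRP19*, a glycine-rich protein of the pollen coat gene cluster, gave -4.72, -5.78 and -5.38 in *pgp1-2* and -9.87, -7.98 and -8.10 in WT, at least 2.67-fold higher. Its second probe, with means of -6.67 in *pgp1-2* and -8.05 in WT, was well above background on 1 *pgp1-2* array only.

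Beside these, the marker lists for reproductive tissue gave the following values. Of 11 measured flower markers, 4 were well above background on all *pgp1-2* arrays and 4 on all WT arrays, and their summed signal was 96.4% to 143% of the 75th percentile in *pgp1-2* and 42.6% to 66.2% in WT. Beside 27.6% higher and 24.6% lower among all kept genes that are not members, 2 of the 4 kept flower markers were higher in *pgp1-2* and 0 lower. These were the floral MADS-box genes *SEP3*, by 2.36 on the log2 scale (limma adjusted p = 0.00263), and *SHP1*, by 1.11 (limma adjusted p = 0.000581; 0.368 under normexp). *PI* and *AGL8* did not pass the test, at 0.05 (limma adjusted p = 0.948) and 0.74 (limma adjusted p = 0.0805; *AGL8* passed without *pgp1-2* replicate 2, at 0.0153). By its mean *AGL8* was the brightest flower marker in both groups, at -1.10 in *pgp1-2* and -1.84 in WT, and it is part of the sums above. The other measured flower markers were too dim to keep. Means in *pgp1-2* and WT were -6.50 and -8.17 for *AG*, -5.63 and -7.62 for *AP3*, and -6.48 and -7.95 for *AP1*. They were -6.64 and -8.03 for *SEP2*, and -5.99 and -6.87 for *STK*. In the other direction, *SHP2* averaged -7.74 in *pgp1-2* and -7.10 in WT, and *SEP1* -5.90 in *pgp1-2* and -5.62 in WT. None of 3 pollen markers passed the flag on all arrays of either group, and their sums were 0.49% to 3.00% in *pgp1-2* and 0.32% to 2.33% in WT. Of 17 seed markers, 2 were well above background on all *pgp1-2* arrays and 1 on all WT arrays, with sums of 22.5% to 46.8% in *pgp1-2* and 18.8% to 22.7% in WT. The part of any tissue in the members' signals was not tested.

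Lipid and sterol metabolism accounted for 5 members, *CYP96A11* among them. *GLIP3*, a GDSL-motif lipase, was even in *pgp1-2* at -3.56, -3.77 and -3.61 and gave -8.29, -8.11 and -7.34 in WT, at least 8.38-fold higher. *LAS1*, a lanosterol synthase, gave -4.12, -5.07 and -5.45 in *pgp1-2* and -8.74, -7.96 and -8.08 in WT, at least 3.56-fold higher. *ACP5*, an acyl carrier protein, spread most of all members, with -7.57, -4.94 and -5.01 in *pgp1-2* and -8.72, -6.23 and -7.89 in WT. Its groups overlapped, and its at-least fold was 1.83.

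*ACC2*, an acetyl-CoA carboxylase located in plastids, was a member through 1 probe only. That probe gave -4.13, -3.92 and -3.19 in *pgp1-2* and -10.32, -7.17 and -7.90 in WT, at least 7.81-fold higher. Its second probe was well above background on all 6 arrays, with 1.44, 1.41 and 1.11 in *pgp1-2* and -3.72, -3.83 and -3.94 in WT. The transcript was thus measured in WT as well, and the second probe put the difference at 5.15 on the log2 scale. In *CSLG2*, a cellulose synthase-like gene, the second probe was likewise well above background in WT, with a difference of 3.04, while the probe that made it a member was at least 4.68-fold higher. Over the 17 members with several probes, 12 had no other probe detected on any WT array, and 7 had another probe with the members' pattern.

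The remaining cell wall and sugar genes had at-least folds near 2. *EXPA2*, an expansin, gave -5.76, -5.37 and -5.63 in *pgp1-2* and -9.40, -6.75 and -8.32 in WT, at least 2.18-fold higher. *LAC14*, a laccase, and *GolS7*, a galactinol synthase, were at least 1.89-fold and 1.87-fold higher.

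Hormone-related members were likewise close to the detection limit. AT4G09530, which the gene table also names *SAUR17*, a small auxin-up RNA, was at least 3.64-fold higher at -4.65, -4.77 and -5.12 in *pgp1-2* and -8.14, -7.08 and -8.10 in WT. *RGF7*, a secreted root growth peptide, was at least 2.32-fold higher, and *CKX3*, a cytokinin oxidase, at least 1.83-fold. *TAR1*, related to the tryptophan aminotransferase of auxin synthesis, was at least 1.57-fold higher. On slide 2 alone the bound was 1.06 for *RGF7* and 1.09 for *TAR1*. Of 14 other kept genes with a SAUR symbol, 2 were called higher and 11 lower. Of 4 with an RGF symbol 0 were higher and 3 lower, and of 5 with a CKX symbol 0 were higher and 1 lower. Among all kept genes that are not members, 27.6% were higher and 24.6% lower.

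Other named members encode enzymes and proteins of several kinds. *AATP1*, an AAA-type ATPase named for seed development, gave -2.99, -3.64 and -2.67 in *pgp1-2* and -8.03, -7.76 and -7.86 in WT, at least 11.9-fold higher. *SRO3*, of the SIMILAR TO RCD ONE stress proteins, gave -3.70, -3.71 and -4.04 in *pgp1-2* and -9.24, -7.51 and -8.27 in WT, at least 7.46-fold higher. In both genes the *pgp1-2* arrays lay more than 3 log2 units above every WT array.

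*GAT1_2.1*, a class I glutamine amidotransferase, was at least 4.62-fold higher and *UGT71B5*, a UDP-glycosyltransferase, at least 3.75-fold. *UGT71B5* gave -4.43, -4.73 and -5.18 in *pgp1-2* and -8.14, -5.86 and -8.29 in WT. *AO4*, an aldehyde oxidase, was at least 3.05-fold higher. *TET14*, a tetraspanin of membranes, was at least 2.91-fold higher by the probe that made it a member. Its second probe gave -5.09, -5.28 and -5.74 in *pgp1-2* and -6.08, -6.70 and -6.49 in WT, a log2 difference of 1.06, less than that bound, and was well above background on 1 WT array. *ABCF2*, an ABC protein without a membrane domain, was at least 1.56-fold higher at -6.43, -6.00 and -5.79 in *pgp1-2* and -8.72, -8.29 and -6.42 in WT, and its groups overlapped.

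Among the *pgp1-2* arrays the members varied by a median SD of 0.42. The smallest SD was 0.036, and the SD exceeded 1 in 5 members: *ACP5*, A_84_P855687, AT5G52720, AT4G05030 and *ZFP10*. EF183252 was the most even, at -5.13, -5.08 and -5.16. The signal was highest on replicate 1 for 49 members, on replicate 2 for 33 and on replicate 3 for 10, and the medians were -4.53, -4.67 and -5.02.

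Relatives of the members, here genes whose symbol has the same stem, were called in both directions. Of 243 such genes that were kept and are not members, 65 (26.7%) were higher in *pgp1-2* and 69 (28.4%) lower by the limma fit, with a median difference of 0.01; among all 22589 kept genes that are not members 27.6% were higher and 24.6% lower, with a median of 0.03. Under spike-in scaling 59 of the 243 were higher and 22 lower, beside 3773 and 1066 of all 22682 kept genes. The median of the relatives was then 0.44, where that of all kept genes was 0.47. Under normexp 29 relatives were higher and 45 lower, beside 2827 and 3876 of all 22682 kept genes. Relatives of *SRO3* included 2 that rose: *SRO5* to -2.75 ± 0.43 in *pgp1-2*, against -6.52 ± 0.46 in WT (limma adjusted p = 0.000332, but 0.0831 under normexp; well above background on 1 WT array), and *SRO2* to -0.89 ± 0.29, against -3.03 ± 0.17 in WT (SD, n = 3 each; limma adjusted p = 0.000302). *SRO1* was lower in *pgp1-2*, by -0.82 (limma adjusted p = 0.000358, but 0.448 under spike-in scaling).

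For *LBD40*, 13 relatives were kept, of which 6 were higher and 3 lower in *pgp1-2*. The largest rise among them was that of *LBD41*, to -0.50 ± 0.42 in *pgp1-2*, against -3.84 ± 0.12 in WT (SD, n = 3 each; limma adjusted p = 0.000205), and *LBD1* was lower by -2.06 (limma adjusted p = 0.00719). *HDG4* and *HDG7* had 4 kept relatives and none was higher. *HDG1* and *HDG11* were lower by -0.25 each (limma adjusted p = 0.0397 and 0.0352), differences that turned to 0.18 each, not called, under spike-in scaling. The call of *HDG11* ended with any array but *pgp1-2* replicate 3 left out (limma adjusted p up to 0.0989), and that of *HDG1* with any but *pgp1-2* replicate 3 or WT replicate 1 left out (up to 0.118). Both calls also ended under normexp (0.0937 for *HDG11*, 0.0887 for *HDG1*) and without the filter on dim probes (0.0854 and 0.0943). That of *HDG11* ended with a slide block as well (0.054), and that of *HDG1* under quantile scaling (0.0533). *HDG2* and *HDG12* differed by 0.04 and 0.00 (limma adjusted p = 0.631 and 0.994).

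*CYP96A9*, which lies in the same cluster as *CYP96A11*, was higher in *pgp1-2* by 2.20 (limma adjusted p = 0.00243), with 1 WT array well above background; under normexp the difference was -0.24 and not called. *CYP96A12*, next to *CYP96A11*, was higher by 0.58 (limma adjusted p = 0.00588). *CYP96A10*, the gene on the other side of *CYP96A11*, was too dim to keep. Of 6 kept relatives of *CYP96A11*, 3 were higher and 2 lower in *pgp1-2*, with a median difference of 0.28. For *ACC2* the neighbouring homologue *ACC1* was higher by 0.28 (limma adjusted p = 0.0128, but 0.0598 under normexp and 0.16 under spike-in scaling). The methyltransferase genes *DRM2* and *DRM3* differed by -0.03 and 0.04 and were not called (limma adjusted p = 0.804 and 0.686). Both kept relatives of *GLIP3* were lower in *pgp1-2*: *GLIP5* by -0.61 (limma adjusted p = 0.0015, but 0.732 under spike-in scaling) and *GLIP1* by -2.62 (limma adjusted p = 0.0408). The call of *GLIP1* was lost with the replicate block (limma adjusted p = 0.0965), with a slide block (0.0668) and under quantile scaling (0.0546). It was also lost without the filter on dim probes (0.101) and with any array but *pgp1-2* replicate 3 left out (up to 0.122). Of 52 kept NAC relatives of *NAC085*, 19 were higher and 14 lower, and of 71 MYB relatives of *MYB27*, 14 were higher and 21 lower.

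**Figure D3:**
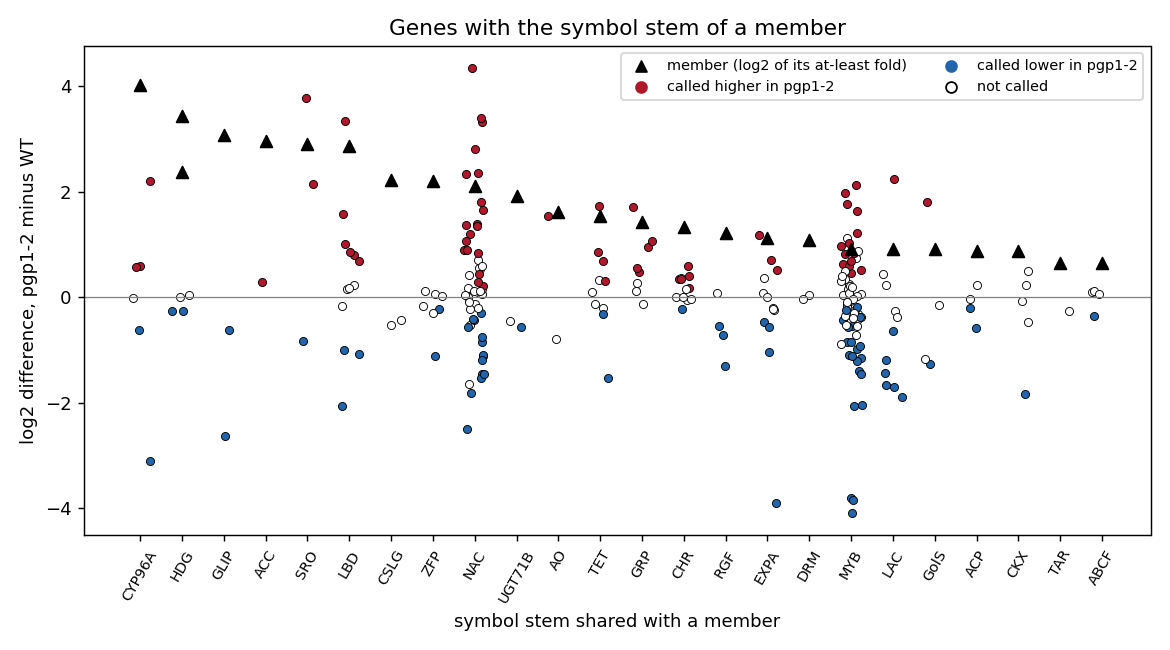
The vertical axis is the log2 difference of *pgp1-2* minus WT and each column holds genes that share a symbol stem with a member. Triangles are members, drawn at the log2 of their at-least fold, and circles are the 243 other genes, of which 65 were called higher and 69 lower; circles give the fitted difference also where 1 group was not well above background.

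Genes next to a member on its chromosome were examined because related genes often lie side by side. Of 81 kept neighbours that are not members, 35 (43.2%) were higher and 19 lower in *pgp1-2*, with a median difference of 0.10, beside 27.6% higher and 24.6% lower among all kept genes that are not members. Under spike-in scaling 24 were higher and 3 lower, beside 3773 and 1066 of all 22682 kept genes. A rise of at least 2 on the log2 scale was called for 5 of the 26 neighbours of the 30 highest members and for 0 of the 55 neighbours of the others, beside 1.88% of all kept genes that are not members. This split was made after the values were seen and was not tested. Cross-hybridisation between similar genes was not tested either.

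These 5 neighbours had large differences. AT5G53230, beside AT5G53240, gave 0.37, 0.33 and -0.27 in *pgp1-2* and -7.93, -7.14 and -7.75 in WT, a difference of 7.75 (limma adjusted p = 6.83e-05), with 1 WT array well above background. AT2G18193, beside AT2G18190, was higher by 5.11 (limma adjusted p = 0.000354). AT1G52100, beside AT1G52110, was higher by 4.16 (limma adjusted p = 7.08e-05).

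AT1G30160, beside AT1G30170, was higher by 2.85 (limma adjusted p = 0.000117). *GLL22*, a GDSL lipase-like gene beside *GLIP3*, was higher by 2.02 (limma adjusted p = 0.000337). Next to *GRP19*, *GRP20* was higher by 1.71 (limma adjusted p = 0.000612), with 1 WT array well above background; under normexp the difference was 0.05 and not called. These 6 were chosen for their higher values in *pgp1-2*.

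A pair of members, AT3G28560 and AT3G28570, were themselves adjacent. AT3G28560 gave -5.08, -3.51 and -4.82 in *pgp1-2* and -10.00, -8.24 and -8.16 in WT, at least 4.74-fold higher. AT3G28580, the next measured protein-coding gene beyond AT3G28570, was higher in *pgp1-2* by 4.61 (limma adjusted p = 0.000123), and AT3G28540 by 3.08 (limma adjusted p = 6.68e-05). Between them AT3G28550 was lower, by -2.75 (limma adjusted p = 0.000245). A neighbour of AT4G05030, AT4G05040, was also lower, by -2.88 (limma adjusted p = 9.96e-05). Likewise AT1G30190, the next measured protein-coding gene on the far side of AT1G30170 from AT1G30160, was lower, by -4.88 (limma adjusted p = 0.000197).

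**Figure D4:**
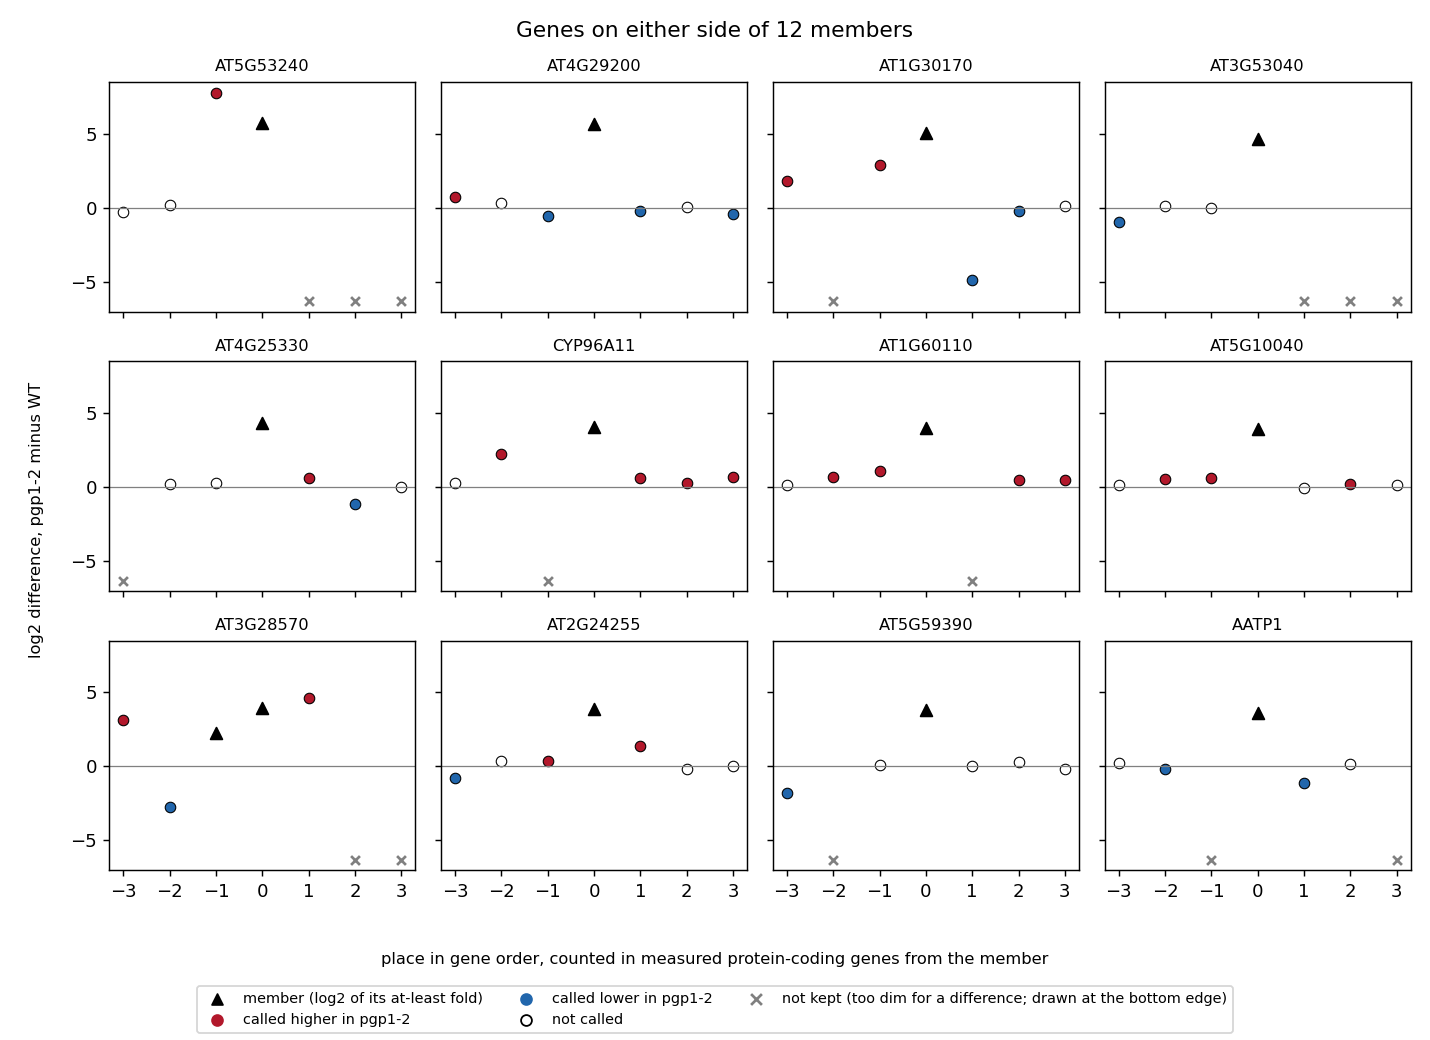
Each panel centres on 1 of the 12 members with a locus and the highest at-least fold; the horizontal axis counts measured protein-coding genes to either side and the vertical axis is the log2 difference of *pgp1-2* minus WT. Triangles are members at the log2 of their at-least fold, circles other genes, crosses genes too dim to keep. AT5G53230 stands at 7.75 beside AT5G53240, while none of the kept genes shown around AT3G53040, AT5G59390 and *AATP1* was called higher.

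The members were also set beside lists of genes of known stress and defence responses. No member was in any of these lists. The lists are short, with 16 genes for low oxygen, and a gene of such a response can be missing from them. Low-oxygen genes, which include fermentation enzymes, had the highest median. Of 16 kept, 14 were higher in *pgp1-2* and 0 lower, with a median difference of 2.93, beside 0.03 over all kept genes that are not members. *ADH1*, alcohol dehydrogenase, was at 1.81 ± 0.31 in *pgp1-2* and -0.55 ± 0.18 in WT (SD, n = 3 each; limma adjusted p = 0.000284), and *HB1*, a haemoglobin, at 3.69 ± 0.41 and 0.57 ± 0.08 (limma adjusted p = 0.000214). *LBD41* and *SRO5*, relatives of *LBD40* and *SRO3*, are on this list. *SUS4* and *ERF73* did not pass the test, at 0.54 (limma adjusted p = 0.0817, but 0.00775 without *pgp1-2* replicate 3) and -0.22 (limma adjusted p = 0.151).

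The other lists are to be read beside the 27.6% of all kept genes that were higher and the 24.6% that were lower. Jasmonate and ethylene defence genes were higher in 8 and lower in 3 of 13, with a median of 1.80, salicylate defence genes higher in 11 and lower in 1 of 21, with 0.72, and mitochondrial retrograde genes higher in 9 and lower in 3 of 19, with 0.99. Xenobiotic detoxification genes were higher in 2 and lower in 6 of 15, with a median of -0.10, and senescence genes higher in 1 and lower in 4 of 9, with -0.58. Of 6 singlet oxygen genes, 2 were higher, among them AT3G28580 beside the member AT3G28570, and 1 lower. Heat shock genes were higher in 1 and lower in 2 of 6, and camalexin genes higher in 1 and lower in 1 of 7.

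Root, leaf and vascular or epidermal markers also differed between the groups. Calls among them are to be read beside the 27.6% of all kept genes that were higher and the 24.6% that were lower. Summed leaf markers were 35010% to 43712% of the 75th percentile in *pgp1-2* and 65057% to 70328% in WT, and 5 of 5 were lower. Root markers summed to 4525% to 6753% in *pgp1-2* and 1830% to 2008% in WT, nearly all of it from *PYK10*, a beta-glucosidase. Without *PYK10*, a sum added after the values were seen, they came to 48.0% to 68.3% in *pgp1-2* and 77.9% to 120% in WT. Of 7 kept root markers, 2 were higher, *PYK10* by 1.56 and *SHV2* by 1.70 (limma adjusted p = 0.000587 and 0.0426), and 4 lower, among them the endodermal gene *CASP1* by -4.38 (limma adjusted p = 0.000409). *SHV2* was well above background on 2 WT arrays. Only 1 root marker was called higher under normexp, with the replicate block and without the filter on dim probes. The same held with any array but *pgp1-2* replicate 3 or WT replicate 3 left out. Vascular and epidermal markers summed to 525% to 577% in *pgp1-2* and 1003% to 1083% in WT, with 2 of 7 higher and 5 lower. Under spike-in scaling 1066 of all 22682 kept genes were called lower. So were 1 of 5 leaf markers, 2 of 7 root markers, and 1 of 7 vascular and epidermal markers. Their part in the members' signals was not tested.

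**Figure D5:**
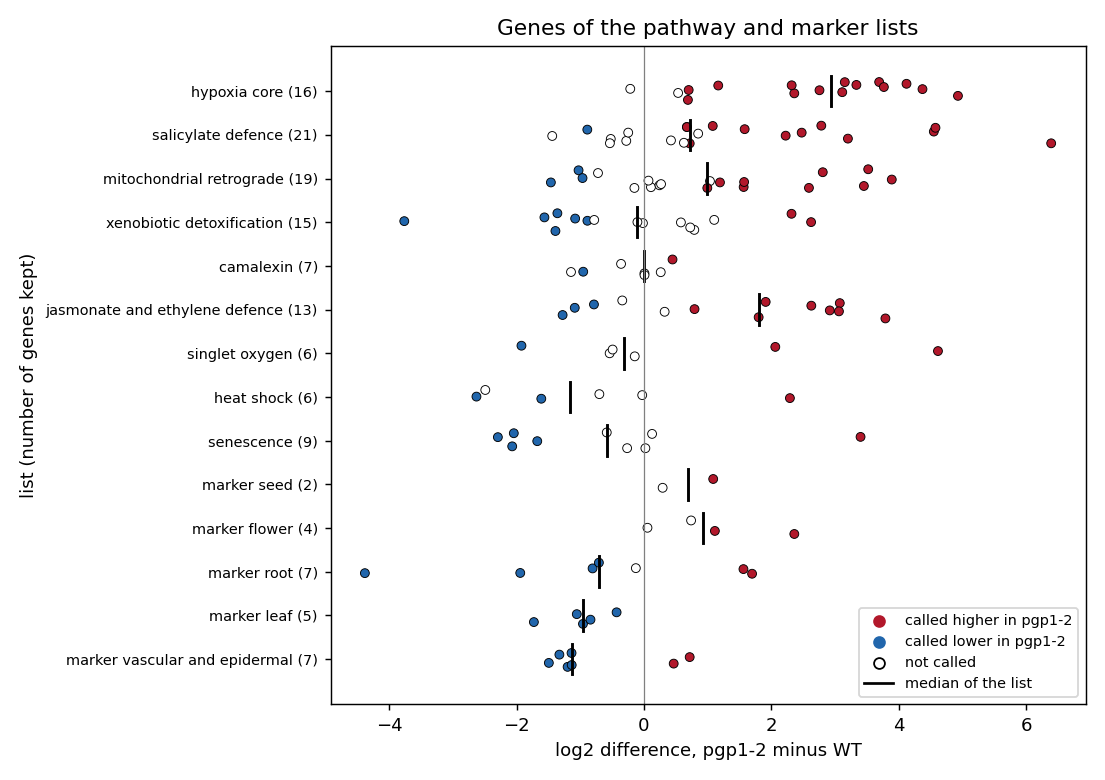
The horizontal axis is the log2 difference of *pgp1-2* minus WT for the kept genes of each pathway and marker list, with the number of genes in brackets and the median as a bar. Red circles were called higher, blue ones lower and white ones not called; the low-oxygen list has 14 of 16 genes in red.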

How the data were processed

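RNA of whole seedlings, 3 *pgp1-2* and 3 WT samples grouped by the sample labels, was measured on 6 one-colour arrays labelled with Cy3. The deposited files give, per the file headers, a background-corrected and detrended intensity for each spot on a linear scale, together with raw intensity, local background and flags of 0 or 1 (another kind of value than an intensity), made with Agilent Feature Extraction 10.7.1.1. No scaling between arrays is recorded there.

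The log2 intensity minus the array's 75th percentile over non-control spots was used, spots flagged as outliers were dropped and spots of 1 probe averaged. Of 43603 probes, 34358 matched 25433 loci of the TAIR10.1 gene table, which served for names and gene order only; 9245 kept their file name, and 197 that lost all spots on an array were left out. The 22682 genes with a probe that passed the flag on every array of 1 group or both were tested with limma 3.58.1 in R 4.3.3 (lmFit and eBayes, two-sided, Benjamini-Hochberg over those genes, called at an adjusted p under 0.05). The fit was checked on simulated data for the brighter probes only, with independent noise and no slide effect. That check does not cover dim probes such as those of the members. The number of arrays limits the precision.

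Members, gene lists and markers were chosen with earlier results of these data known, and symbol-stem relatives after the values were seen. By rule all members were counted, the 30 with the highest at-least fold and those of listed families were described singly, and listed genes, neighbours and relatives could be named beside them. The other members with a symbol were added after their values were seen. Alternatives covered scaling, background correction, detection flag, size limit, slide, replicate block and each array left out. Normexp used the median spot signal with an offset of 50, in place of the mean signal planned for it.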

Additional observations from a re-analysis of the deposited data

How the results depend on the processing

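The number of members was 92. It was 14 under normexp, 39 under the lenient flag (15 of them among the 92), 674 on slide 1 only, 333 on slide 2 only, and 94 to 330 when 1 array was left out, the highest without WT replicate 1; without WT replicate 1 there were 330, of which 86 were among the 92. Under quantile, median and spike-in scaling there were 92, 91 and 93, and with limits of 1 and 2 on the log2 scale 93 and 85. Taking the brightest probe of each gene before the rule gave 87, and keeping outlying spots gave 93, both choices made after seeing the data. In all 18 settings 6 genes met the rule: AT5G53240, AT1G30170, AT3G53040, AT5G10040, AT3G28570 and AT2G03130. The median at-least fold was 1.08 under normexp, 5.25 under spike-in scaling, and 2.40 to 5.09 with 1 array left out.

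Of 22682 genes, 11885 genes called by the limma fit compare with 3415 genes called at 2-fold or more. Under normexp these counts were 6703 and 2221, with 221 in the families (361 before) and 74 relatives (134 before). Spike-in scaling moved the median difference of all genes to 0.47, against 0.03, and left 4839 called (3773 higher and 1066 lower), with 11 markers called, 7 higher and 4 lower (21 before, 7 higher and 14 lower), 216 in the families, 27 neighbours (54 before) and 81 relatives. Median scaling turned the split of calls to 5234 higher and 6184 lower, against 6318 and 5567. With 1 array left out, the number of genes called was 9582 to 11101.

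Same-numbered samples correlated by 0.08, 0.12 and 0.06 in their deviations from the group means, so the numbers were not taken to pair them; with the replicate block the number of genes called was 11016, with 70 in the gene lists, 20 markers, 348 in the families, 53 neighbours and 126 member relatives, each within 1.5 times the count without it. Of 56 genes that are not members and were listed for this check, 40 kept their direction and call in every setting that kept them. The list is not the same as the genes named above. It holds *OLEO4*, which is not named there, and lacks some that are. Directions turned under normexp for *CYP96A9* (-0.24) and *LAC8* (-0.0832), and under spike-in scaling for *HDG1* and *HDG11* (0.18 each), all 4 then not called; the cause was not tested. Paralogs by protein sequence and promoter motifs were not run. Of the 92 members, normexp lost 78 and the lenient flag 77. Signal over background limits the members: 13 had an at-least fold under 2.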
